A study of Mus musculus with 2 samples.

Results

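The 42 genes described here make, lengthen, desaturate, activate or oxidize fatty acids, and they were chosen by name from the 55416 features counted in nuclei of the whole fetal mouse brain. They comprise 16 genes of synthesis, elongation and desaturation, 21 genes of oxidation, and 5 long-chain acyl-CoA synthetases, which serve both directions and were kept out of both sums. The samples were 1 wildtype brain library and 1 library labelled as a knockout of Cav1, the gene of caveolin 1, a membrane protein of caveolae. Both came from frozen whole brain of fetal age, with the gestational day, strain, allele and number of animals not given in the sources used here. The study's title links Cav1 to metabolic programming in fetal brain, so the comparison asks whether fatty acid genes differ between the genotypes and between cell classes.

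Cells build palmitate in the cytosol from acetyl-CoA, which ATP citrate lyase (Acly) provides, which acetyl-CoA carboxylase (Acaca, Acacb) turns into malonyl-CoA, and which fatty acid synthase (Fasn) assembles. Elongases (Elovl genes) and desaturases (Scd and Fads genes) then make the long and unsaturated chains that membranes of a growing brain need. For oxidation, the carnitine shuttle carries acyl groups into mitochondria, where dehydrogenases, a hydratase, a second dehydrogenase and a thiolase shorten them and electron transfer flavoprotein passes the electrons on. Malonyl-CoA inhibits the first step of that shuttle, which ties the opposing pathways together. Radial glia, the stem cells of the fetal brain, are known to express oxidation genes more than the neurons they give rise to.

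In single-nucleus RNA-seq, every captured RNA is tagged with the barcode of a nucleus and with a unique molecular identifier (UMI) by which PCR copies are counted once. After filters, 6686 nuclei with 17205381 UMIs remained in the wildtype-labelled library and 6680 nuclei with 19878903 UMIs in the knockout-labelled library, with medians of 2133.5 and 2366 UMIs per nucleus. The libraries shared 43 barcodes as deposited and 10 among the nuclei kept. Cav1 itself had 71 wildtype-labelled and 80 knockout-labelled UMIs over all kept nuclei (log2 ratio −0.04, −0.52 to 0.45), so its total did not follow the labels. In endothelial-like nuclei, a cell type known for caveolae, it had 17 wildtype-labelled UMIs and 1 knockout-labelled UMI (log2 ratio −4.38, −9.77 to −1.71). The libraries are therefore called by their labels throughout. Levels are given as CPM, UMIs of a gene scaled to one common total of UMIs for every sum, and differences as the log2 ratio of CPM, knockout-labelled over wildtype-labelled. With 1 library per genotype no difference has a replicate check, genotype and library cannot be told apart, and every interval is a 95% interval for counting error only. Fewer nuclei of a type and less RNA per nucleus cannot be told apart in a sum over all nuclei.

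Promoter letters are shown for Fasn, the enzyme that assembles palmitate, and for Etfb, the beta subunit of electron transfer flavoprotein and the one member to pass the rule of size given below with an interval off 0. They are the 150 bases upstream of the annotated start from RefSeq on GRCm38.p6, on chr11:120824548-120824697 (minus strand) and chr7:43443922-43444071 (plus strand), written 5′ to 3′ with the CCAAT letters of the NF-Y box, on either strand, in capitals.
Fasn: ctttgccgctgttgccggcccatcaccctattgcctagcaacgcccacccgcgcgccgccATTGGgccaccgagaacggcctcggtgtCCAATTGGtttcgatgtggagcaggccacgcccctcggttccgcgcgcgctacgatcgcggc
Etfb: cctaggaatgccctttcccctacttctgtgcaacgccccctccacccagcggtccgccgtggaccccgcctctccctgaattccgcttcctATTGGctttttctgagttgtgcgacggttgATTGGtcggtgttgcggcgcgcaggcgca
Fasn held 3 matches and Etfb 2. In all, 37 of the 42 members had a promoter in the RefSeq table, and Scd1, Scd2, Fads1, Acaa2 and Decr1 had none. A CCAAT match within these 150 bases stood in 14 of the 37, against 27.7% of 27025 genes. The 14 were Acacb, Fasn, Elovl1, Elovl5, Fads3, Acsl1, Acsl3, Acsl5, Acsl6, Cpt1a, Cpt1c, Acaa1a, Etfa and Etfb. By arm, the motif stood in 5 of 13 synthesis genes and in 5 of 19 oxidation genes. The sterol regulatory element, searched on both strands, matched 0 of the 37 and 0.159% of all genes. At so low a share, 0 of 37 cannot tell the members from other genes. The E-box CACGTG matched 0 of the 37 and 4.92% of all genes. These are matches of letters and not sites of binding.

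Synthesis genes gave more UMIs than oxidation genes in both libraries. Summed over all kept nuclei, the 16 synthesis genes gave 14275 wildtype-labelled UMIs (830 CPM, 816 to 843) and 17760 knockout-labelled UMIs (893 CPM, 880 to 907). The 21 oxidation genes had 6621 UMIs (385 CPM, 376 to 394) and 7259 UMIs (365 CPM, 357 to 374). Synthesis UMIs thus exceeded oxidation UMIs 2.16-fold in the wildtype-labelled and 2.45-fold in the knockout-labelled library. Between the libraries, the synthesis sum differed by a log2 ratio of 0.11 (0.07 to 0.14) and the oxidation sum by −0.08 (−0.12 to −0.03). The ratio of synthesis to oxidation differed by 0.18 (0.12 to 0.24) on the log2 scale. The 5 synthetases summed to 2567 UMIs (149 CPM) and 3209 UMIs (161 CPM), a log2 ratio of 0.11 (0.04 to 0.19).

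The desaturase gene Scd2 weighed heavily in that difference. It held 23.6% of the synthesis UMIs, and without it the synthesis sum differed by a log2 ratio of 0.04 (0.01 to 0.08) and the ratio of synthesis to oxidation by 0.12 (0.06 to 0.18). Without Hadha, the oxidation gene with the most UMIs, the oxidation log2 ratio was −0.05 (−0.10 to 0.00). After each nucleus was thinned to 1000 UMIs it was −0.02.

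Gene by gene, 40 of the 42 members had at least 100 UMIs over both libraries, and Acacb (32 and 45 UMIs) and Fads6 (42 and 41 UMIs) did not. The rule of size used below is a log2 ratio of at least 0.322 in either direction. Of the 40, 2 were that far higher in the knockout-labelled library, Elovl7 and Etfb, where 8.02% of the 15528 genes with as many UMIs were. None was that far lower, against 4.6% of all genes, and after thinning each nucleus to 1000 UMIs 4 of the 30 members still with 100 UMIs were, against 4.96% of all genes. Thinned so, 3 of the 30 were that far higher, Acadl, Acadm and Etfb, against 6.72% of all genes. Counting intervals lay above 0 for 4 of the 40, Scd2, Acsl3, Acadm and Etfb, and below 0 for 3, Acly, Hadha and Acaa2, against 13.2% of all genes in each direction. As a share, the members called were near or below the background in each of these counts at full depth. After thinning, the members lower were above it, and so, on 3 members, were those higher. The median log2 ratio was 0.10 over the 14 synthesis genes that passed the filter, −0.12 over the 21 oxidation genes and 0.11 over the 5 synthetases, beside −0.01 over all genes. Of all genes 46.5% were above 0. Of the members, 11 synthesis genes were above 0 and 3 below, 5 oxidation genes above and 16 below, and 3 synthetases above and 2 below. For all genes the central 90% of log2 ratios ran from −0.31 to 0.42, a span that holds 39 of the 40 members. Just inside the rule stood Etfb at 0.37, and just outside it were Scd2 at 0.319, Cpt2 at −0.31, and Acads and Acaa2 at −0.30.

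**Figure D1:**
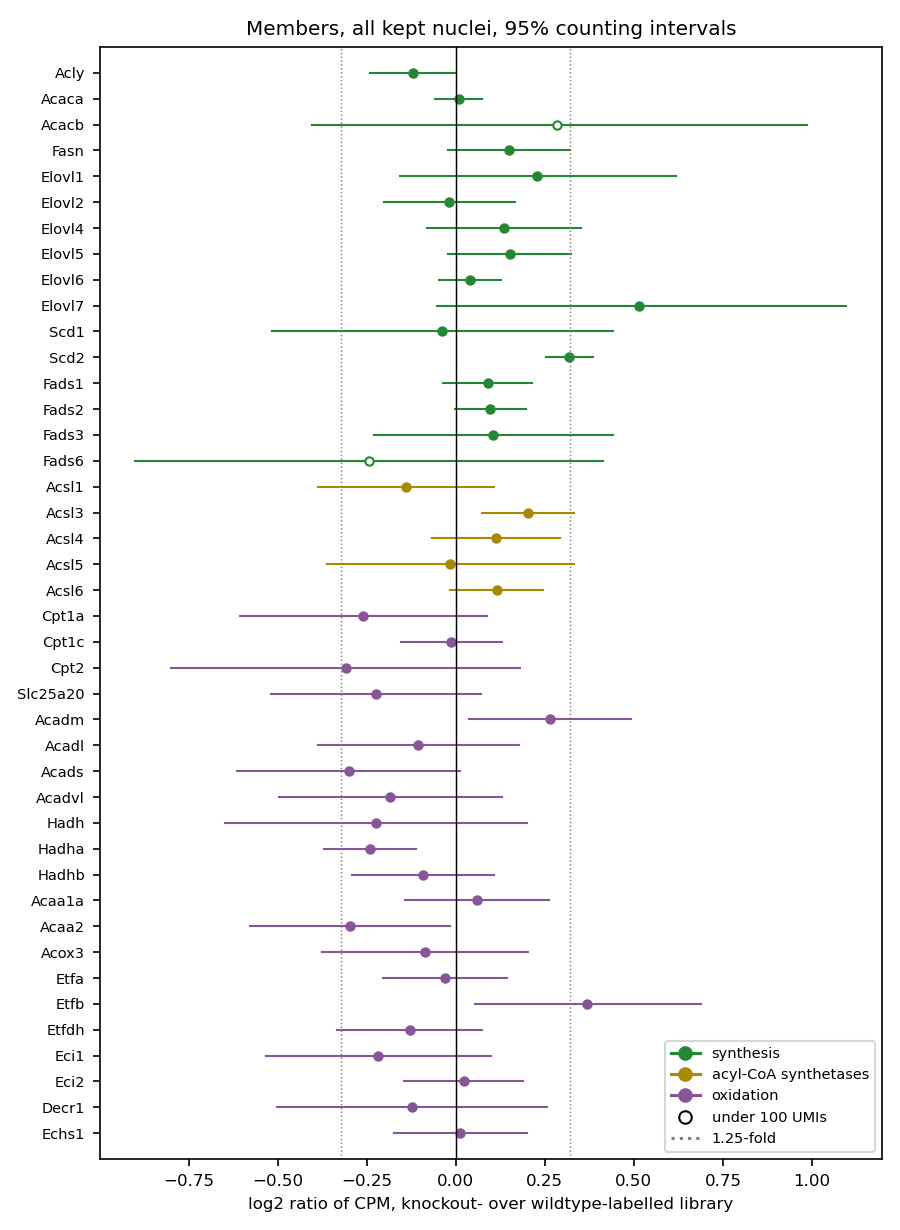
Log2 ratio of CPM, knockout-labelled over wildtype-labelled library (x axis), for each of the 42 members over all kept nuclei, with 95% counting intervals as lines; dotted lines mark the rule of size, 0.322 either way, and open points members under 100 UMIs. Most synthesis points (green) lie right of 0 and most oxidation points (purple) left of it, few with an interval off 0.

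Among the genes of cytosolic synthesis the libraries differed little. Acaca (chromosome 11, 84020476 to 84292477 in GRCm39, plus strand), which makes malonyl-CoA, gave 3430 wildtype-labelled UMIs (199 CPM) and 3986 knockout-labelled UMIs (201 CPM). Its log2 ratio was 0.01 (−0.06 to 0.07), so its level was nearly the same in both. Tada2a and other genes overlap it on the opposite strand, and with the use of strand unknown part of its UMIs may be theirs. Acly had 1119 UMIs (65.0 CPM) and 1189 UMIs (59.8 CPM), a log2 ratio of −0.12 (−0.24 to 0.00). Fasn had 503 UMIs (29.2 CPM) and 644 UMIs (32.4 CPM), a log2 ratio of 0.15 (−0.02 to 0.32). Acacb, the carboxylase isoform of the mitochondrial surface, stood far below Acaca on the scale of CPM per kilobase of exon, at 0.183 and 0.222 beside 10.8 and 10.9.

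The elongases were led by Elovl6, which extends palmitate to stearate. Elovl6 had 1995 UMIs (116 CPM) and 2371 UMIs (119 CPM), a log2 ratio of 0.04 (−0.05 to 0.13). Elovl2, Elovl4 and Elovl5, which act on long polyunsaturated or very long chains, had between 18.6 and 31.5 CPM in either library, and log2 ratios from −0.02 to 0.15 with intervals that held 0. Elovl7, past the rule of size, rested on 43 and 71 UMIs, and its log2 ratio of 0.52 had an interval from −0.05 to 1.10. Per kilobase of exon, Elovl6 reached 13.7 and 14.1 CPM, while Elovl7 and Elovl1 stayed between 0.437 and 1.24.

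Among the desaturases, Scd2 differed most in UMIs between the libraries. Scd2 (chromosome 19, 44281613 to 44295303 in GRCm39, plus strand), which puts the first double bond into stearate and palmitate, gave 3099 wildtype-labelled UMIs (180 CPM, 174 to 187) and 4466 knockout-labelled UMIs (225 CPM, 218 to 231). Its log2 ratio was 0.319 (0.25 to 0.39), so that the counting intervals of the levels did not meet. Over the same kind of alternatives it ran from 0.28 to 0.36, on either side of the rule of size. Per kilobase of exon it was the highest of all 42 members, at 23.9 and 29.8 CPM. Scd1, a near relative on the same chromosome, had 72 and 81 UMIs and 0.581 and 0.565 CPM per kilobase, far below Scd2, as far as reads of the related copies were told apart. Fads1 and Fads2, the delta-5 and delta-6 desaturases of polyunsaturated fatty acids, had log2 ratios of 0.09 (−0.03 to 0.22) and 0.10 (0.00 to 0.20). At 9.90 and 10.5 CPM per kilobase for Fads1 and 13.2 and 14.1 for Fads2, they were among the 6 highest members on that scale. The order depends on the length used, and whether intron reads were counted is unknown. Per kilobase of the whole gene span, Scd2 (13.2 and 16.4 CPM) and Fads1 (3.94 and 4.19) were highest, followed by the oxidation gene Cpt1c (2.71 and 2.68), while Elovl6 stood at 1.09 and 1.12.

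Of the acyl-CoA synthetases, which attach coenzyme A to free fatty acids, Acsl3 had 855 UMIs (49.7 CPM) and 1137 UMIs (57.2 CPM), a log2 ratio of 0.20 (0.07 to 0.33). Acsl6, an isoform known from brain, followed with 853 UMIs (49.6 CPM) and 1067 UMIs (53.7 CPM) at 0.11 (−0.02 to 0.25). Acsl4, Acsl5 and Acsl1 had log2 ratios of 0.11, −0.02 and −0.14, each with an interval that held 0.

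**Figure D2:**
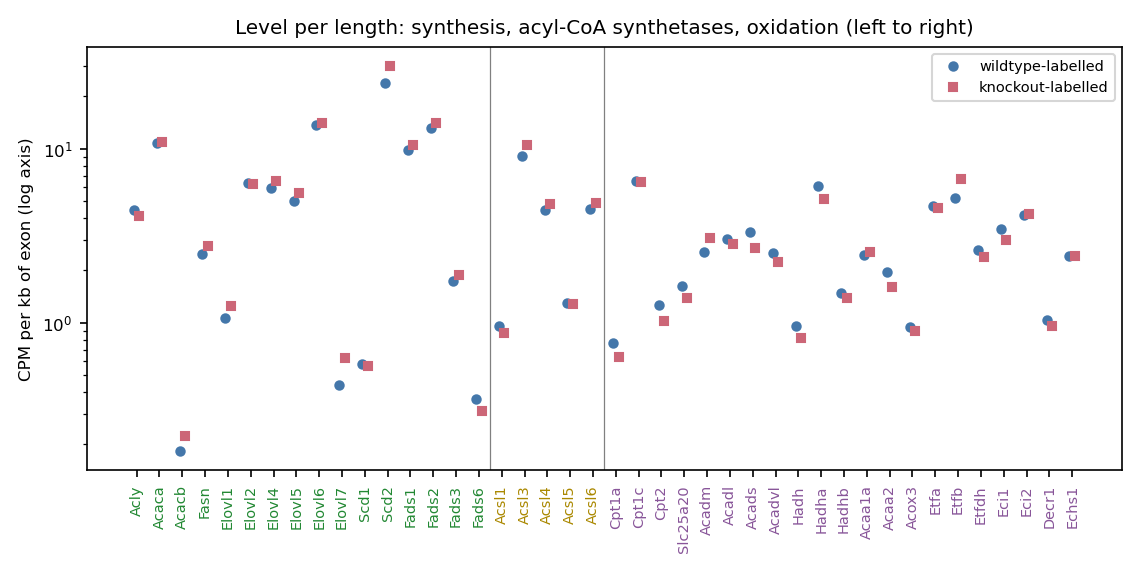
Level of each member in CPM per kilobase of exon (log axis), circles for the wildtype-labelled and squares for the knockout-labelled library, with synthesis genes at left, synthetases in the middle and oxidation genes at right. Scd2 is the highest at 23.9 and 29.8, and the highest oxidation gene, Etfb at 6.75 in the knockout-labelled library, lies below 6 of the synthesis genes and synthetases on this scale.

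In the carnitine shuttle all 4 genes had log2 ratios below 0, and none had an interval that excluded it. Cpt1c, the brain isoform of carnitine palmitoyltransferase, which resides in the endoplasmic reticulum, held 67.0% of the family's UMIs, at 770 UMIs (44.8 CPM) and 882 UMIs (44.4 CPM), or −0.01 (−0.15 to 0.13) as a log2 ratio. Cpt1a, the isoform of the outer mitochondrial membrane, had 144 and 139 UMIs (−0.26, −0.61 to 0.09). Cpt2, of the inner membrane, had 75 and 70 UMIs (−0.31, −0.80 to 0.18). Slc25a20, the carnitine-acylcarnitine carrier between them, had 194 and 192 UMIs (−0.22, −0.52 to 0.07). All 4 genes of the shuttle summed to a log2 ratio of −0.09 (−0.21 to 0.02). Summed without Cpt1c, the 3 mitochondrial genes had a log2 ratio of −0.25 (−0.45 to −0.05). Per kilobase of exon, Cpt1a stood at 0.765 and 0.639 CPM beside 6.50 and 6.45 for Cpt1c.

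The acyl-CoA dehydrogenases, which take the first electrons from chains of different lengths, did not all differ in the same direction. Acadm, for medium chains, had 276 UMIs (16.0 CPM) and 383 UMIs (19.3 CPM), a log2 ratio of 0.26 (0.04 to 0.49). The enzymes for other chain lengths, Acadl, Acads and Acadvl, and the peroxisomal oxidase Acox3, had log2 ratios from −0.30 to −0.09 with intervals that held 0. The family of 5 summed to a log2 ratio of −0.03 (−0.16 to 0.09), and without Acadm, its member with most UMIs, to −0.16 (−0.31 to −0.02). Without their own member with most UMIs, the oxidation families described next had sums with intervals that held 0. These were −0.06 for hydratase, dehydrogenase and thiolase genes, 0.02 for electron transfer and −0.18 for the auxiliary enzymes.

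In the middle of the oxidation cycle, Hadha (chromosome 5, 30323302 to 30360187 in GRCm39, minus strand), the alpha subunit of the mitochondrial trifunctional protein, was the most abundant oxidation gene by UMIs. It had 1002 UMIs (58.2 CPM, 54.7 to 62.0) and 980 UMIs (49.3 CPM, 46.3 to 52.5), and the log2 ratio was −0.24 (−0.37 to −0.11). Hadhb, the beta subunit, which starts head to head with Hadha and overlaps it on the opposite strand, had 402 and 436 UMIs (log2 ratio −0.09, −0.29 to 0.11). Reads at their overlap cannot be given to either gene without the strand. Acaa2, a mitochondrial thiolase, had 219 and 206 UMIs at −0.30 (−0.58 to −0.02). Echs1, the short-chain hydratase, Acaa1a, the peroxisomal thiolase, and Hadh, the short-chain dehydrogenase, had log2 ratios of 0.01, 0.06 and −0.22, with intervals that held 0.

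Among the genes that hand electrons to the respiratory chain, only the beta subunit of electron transfer flavoprotein was past the rule of size. Etfb (chromosome 7, 43093493 to 43107224 in GRCm39, plus strand) had 140 UMIs (8.14 CPM, 6.84 to 9.60) and 209 UMIs (10.5 CPM, 9.14 to 12.0), at 0.37 (0.05 to 0.69) as a log2 ratio. Its partner subunit Etfa had 517 UMIs (30.05 CPM) and 585 UMIs (29.4 CPM), a log2 ratio of −0.03 (−0.20 to 0.14). Etfdh, the dehydrogenase that receives their electrons, had 392 and 414 UMIs at −0.13 (−0.33 to 0.07). The annotated span of Etfb overlaps that of Etfbl on the same strand, so part of its UMIs may be of the latter. Over 9 alternative settings its log2 ratio ran from 0.29 to 0.68. It fell short of the rule of size, with an interval that held 0, under 3 of them: 0.31 with a minimum of 1000 genes per nucleus, 0.29 with no limit on mitochondrial UMIs, and 0.319 without clusters 0 and 17 (one of low depth, the other nearly all from the knockout-labelled library). Among the auxiliary enzymes for unsaturated chains, Eci2 had 548 UMIs (31.9 CPM) and 643 UMIs (32.3 CPM) at 0.02 (−0.14 to 0.19), and Eci1 and Decr1 had log2 ratios of −0.22 and −0.12 with intervals that held 0.

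Nuclei were next assigned to classes by their markers, and class names here mean nuclei like that type. Of the kept nuclei 36.7% and 36.5% met a gate, and 5 classes held at least 100 nuclei in each library. They were radial glia (211 wildtype-labelled and 257 knockout-labelled nuclei), dividing cells (313 and 270), cortical excitatory neurons (659 and 494), forebrain inhibitory neurons (533 and 493) and other excitatory neurons (188 and 257). The summed radial glia markers stood at 3190 and 3563 CPM in gated radial glia and between 181 and 1149 CPM in the other 4 classes. The gate used these same markers, so this contrast was built in. Cortical excitatory markers stood at 2123 and 1923 CPM in gated radial glia, beside 8445 and 7932 CPM in gated cortical excitatory neurons. Each class is set against all other gated nuclei of its library, and a pattern is given where both libraries show it.

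Radial glia had the highest sums of both arms in both libraries. Synthesis genes stood at 1102 CPM (1013 to 1196) and 1353 CPM (1269 to 1442) there, and between 730 and 1010 CPM in the other 4 classes. Oxidation genes stood at 578 CPM (514 to 648) and 464 CPM (415 to 517) in radial glia. In the other 4 classes they stood between 273 and 447 CPM, highest in dividing cells. The knockout-labelled interval of dividing cells (407 to 491) overlapped that of radial glia. Over the clusters described below, radial glia-like nuclei had 521 and 485 CPM of oxidation genes. Neuron-like clusters had less in both libraries. Fibroblast-like (700 and 503 CPM), endothelial-like (556 and 579) and choroid plexus-like clusters (533 and 581) were among those with more. For synthesis, a cluster of dividing nuclei had 1088 CPM in the wildtype-labelled library, beside 1077 CPM in radial glia-like nuclei. Oxidation genes in that dividing cluster stood at 480 and 491 CPM, below radial glia-like nuclei in the wildtype-labelled library and above them in the other. Of the 40 members with at least 50 UMIs over gated nuclei, 10 were 1.5-fold or more higher in radial glia in both libraries, 25.0% of them beside 9.95% of 15006 genes. The 10 were Fasn, Scd1, Scd2 and Fads2 of synthesis and Cpt1a, Acadm, Hadh, Etfa, Eci1 and Eci2 of oxidation. The 3 as far lower were Elovl4, Acsl1 and Elovl7, where 13.1% of all genes were. Without choroid plexus nuclei, an alternative chosen after seeing the data, 39 members passed the minimum, 11 were that far higher (10.3% of all genes) and 2 that far lower, Elovl4 and Acsl1 (13% of all genes).

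Cpt1a, the gate of mitochondrial oxidation, had the steepest profile over the 5 main classes. In radial glia it had 17 wildtype-labelled UMIs (32.9 CPM) and 18 knockout-labelled UMIs (25.3 CPM), against 9.06 and 8.57 CPM in the other gated nuclei. Those log2 ratios of class over other gated nuclei were 1.86 (0.99 to 2.66) and 1.56 (0.72 to 2.34), and after thinning to 1000 UMIs they were 0.44 and 0.79. In cortical excitatory neurons Cpt1a had 7 UMIs and 1 UMI, log2 ratios of −2.01 (−3.37 to −0.89) and −4.46 (−9.78 to −1.94). In forebrain inhibitory neurons it had 4 UMIs in each library, at −1.98 and −1.89. Over the alternatives these neuron values ran from −4.53 to −0.59. Its UMIs were thus few in neurons of both libraries, while Cpt1c stood between 31.9 and 71.5 CPM in all 5 classes. Endothelial nuclei, which count among the other gated nuclei, had a higher Cpt1a level than radial glia in both libraries, as given below.

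Other members shared parts of that profile. Eci1, an isomerase for unsaturated chains, was higher in radial glia by 1.51 (0.56 to 2.36) and 1.23 (0.19 to 2.16), Fads2 by 0.93 (0.57 to 1.27) and 1.00 (0.71 to 1.28), and Etfa by 0.92 (0.31 to 1.48) and 1.10 (0.61 to 1.55). Hadh followed at 1.01 (−0.97 to 2.55) and 1.35 (0.02 to 2.50), on 4 and 8 UMIs. Acadl was lower in cortical excitatory neurons, by −1.67 (−2.79 to −0.71) and −1.89 (−3.13 to −0.85). After thinning to 1000 UMIs the knockout-labelled value of Eci1 in radial glia was 0.30 and that of Acadl in cortical excitatory neurons −0.92. Elovl7 had 51 UMIs over gated nuclei, 22 of them in choroid plexus nuclei, so it passed the minimum of 50 UMIs through that class alone, and its values over other nuclei in the main classes are not read here.

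By arm, 12 of the 21 oxidation genes were higher in radial glia than in the other gated nuclei in both libraries, where 37% of all genes were, and 2 were lower in both, where 33.2% were. Dividing cells were near this, with 10 higher in both and 4 lower in both, beside 35.7% and 37% of all genes. In cortical excitatory neurons 1 was higher in both and 15 were lower in both, beside 21.1% and 54.4% of all genes. The same counts, 1 and 15, held in forebrain inhibitory neurons, beside 26.3% and 43%. In other excitatory neurons they were 0 and 13, beside 24.5% and 46.7%. In the synthesis arm the split was more even in radial glia, with 8 of 14 higher and 5 lower in both libraries. It was also more even in cortical excitatory neurons, 4 higher and 8 lower, and in other excitatory neurons, 5 higher and 8 lower. In forebrain inhibitory neurons 2 synthesis genes were higher and 10 lower, so most genes of both arms were lower there. Members 1.5-fold or more lower in both libraries numbered 7 of 40 in cortical excitatory neurons, where 18.4% of all genes were, and 4 of 40 in forebrain inhibitory neurons, where 15.1% were, so these counts were near or below the background. As many as 4.62% and 2.67% of all genes, and none of the members, were 1.5-fold or more higher in these 2 classes. In dividing cells 4 members were that far lower, where 12.4% of all genes were, and in other excitatory neurons 3 were, where 15.4% were. Elovl7 is among the 7 in cortical excitatory neurons and the 4 in dividing cells. Without choroid plexus nuclei these counts were 6 and 3 of 39, where 17.6% and 12.1% of all genes were.

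The synthetases divided by class. Acsl3 was highest in dividing cells, at 96.5 CPM and 82.8 CPM, and was there 1.5-fold or more above the other gated nuclei in both libraries, 1 of 2 such members beside Eci1 where 9.6% of all genes were. Acsl6 was highest in other excitatory neurons at 73.9 CPM and 85.4 CPM and lowest in dividing cells at 20.1 CPM and 27.3 CPM. Acsl4 was also higher in other excitatory neurons, at 40.3 CPM and 37.6 CPM against 24.4 and 23.8 CPM in the other gated nuclei. With Scd1 and Fads3 they made up the 4 of 40 members 1.5-fold or more higher in that class in both libraries, where 5.88% of all genes were.

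**Figure D3:**
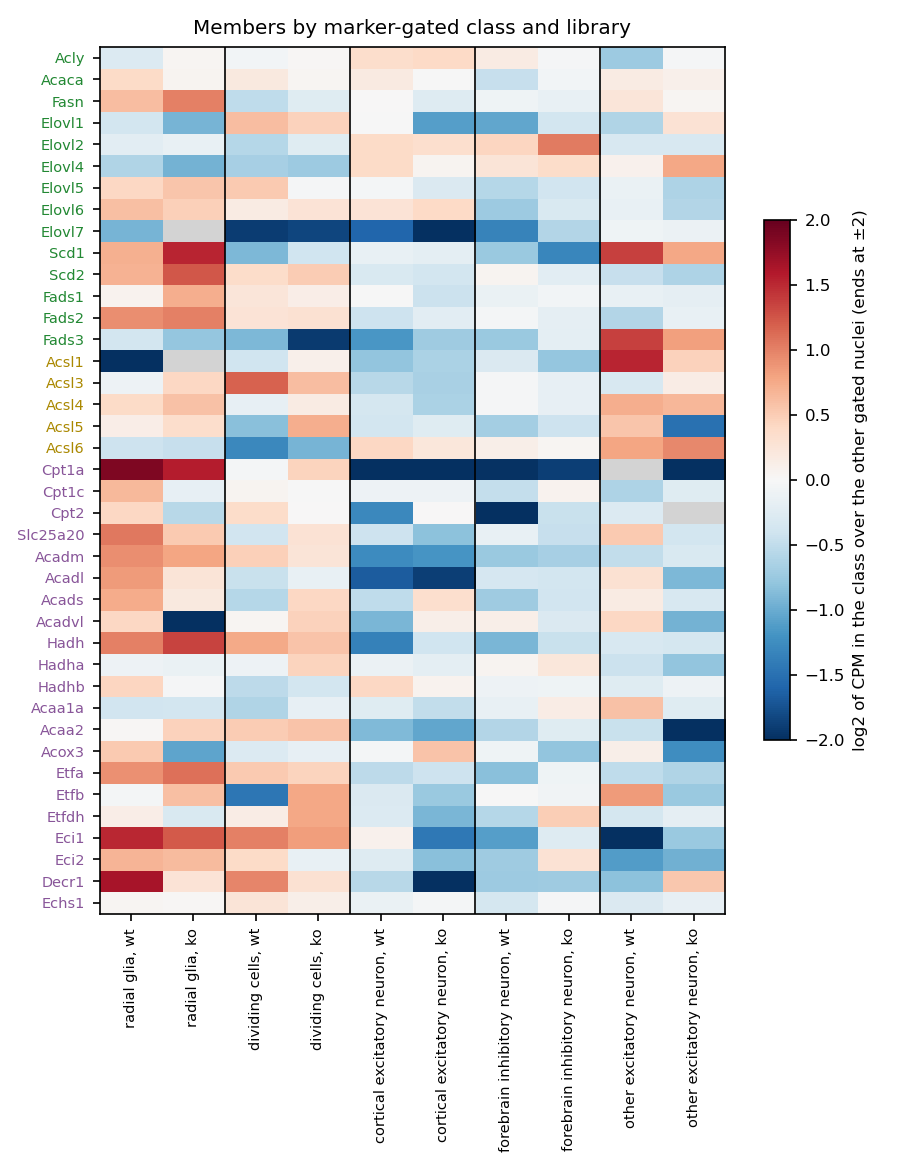
Log2 of CPM in a class over the other gated nuclei for members with at least 50 UMIs over gated nuclei (rows) in 5 classes and both libraries (columns; wt and ko stand for the labels; grey marks 0 UMIs in the class). The radial glia columns are mostly red for oxidation genes, led by Cpt1a at 1.86 and 1.56, and the neuron columns mostly blue.

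Within classes at full depth, the gap between the libraries in Scd2 was widest in radial glia. Wildtype-labelled radial glia held 145 Scd2 UMIs (280 CPM, 237 to 330) and knockout-labelled radial glia 346 (487 CPM, 437 to 541), which gave 0.80 (0.51 to 1.09) as the log2 ratio. In dividing cells it had 213 UMIs (226 CPM) and 309 UMIs (312 CPM), a log2 ratio of 0.47 (0.21 to 0.73). In cortical excitatory neurons the levels were 156 CPM and 188 CPM (0.27, 0.05 to 0.50), in forebrain inhibitory neurons 187 CPM and 204 CPM (0.13, −0.13 to 0.39), and in other excitatory neurons 134 CPM and 158 CPM (0.23, −0.17 to 0.64). The knockout-labelled level was thus the higher in all 5 classes, and the difference between classes was not tested. Their order was not kept after thinning to 1000 UMIs, when the log2 ratio was 0.58 in radial glia, 0.87 in dividing cells, 0.76 in other excitatory, 0.44 in cortical excitatory and 0.02 in forebrain inhibitory neurons. Scd2 was the 1 of 4 members with at least 100 UMIs in radial glia that was 1.5-fold or more higher, where 3.88% of 2883 genes were, and none was as far lower, where 2.53% were. Of the 8 members with at least 100 UMIs in dividing cells, 13 in cortical excitatory, 11 in forebrain inhibitory and 5 in other excitatory neurons, none was that far apart. Of all genes, 2.36% were higher and 1.44% lower in dividing cells, 1.22% and 1.1% in cortical excitatory, 1.45% and 1.13% in forebrain inhibitory, and 2.81% and 2.37% in other excitatory neurons.

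Regional make-up also differed between the libraries, in radial glia and beyond. Ungated nuclei had 40 wildtype-labelled and 132 knockout-labelled UMIs of En1, 24 and 111 of En2, and 1 and 118 of Hoxb3. Other excitatory neurons had 1 and 28 UMIs of En1, while Pax5 in forebrain inhibitory neurons went the other way (11 and 7). The part of region in the sums over all nuclei, classes and clusters was not tested. A UMI of 10 midbrain or hindbrain genes was found in 8 wildtype-labelled and 35 knockout-labelled radial glia, and without these nuclei the Scd2 log2 ratio was 0.77. Radial glia of those regions in which no such UMI was captured stayed in, so 0.77 is not a value free of region. Median depth in radial glia was 2208 and 2446 UMIs per nucleus, and haemoglobin genes, a sign of blood RNA, stood at 971 and 693 CPM there; their part in the result was not tested. Over the radial glia-like cluster the Scd2 log2 ratio was 0.88.

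With a minimum of 50 UMIs in the class, 13 members could be compared in radial glia. Intervals lay above 0 for Scd2 and Fads1, where 5.63% of all such genes did, and below 0 for Cpt1c, where 6.3% did. Fads1 had 27 UMIs (52.2 CPM) and 62 UMIs (87.2 CPM), a log2 ratio of 0.74 (0.07 to 1.45), and Cpt1c had 37 UMIs (71.5 CPM) and 28 UMIs (39.4 CPM), a log2 ratio of −0.86 (−1.62 to −0.11). In forebrain inhibitory neurons the intervals of 3 of 21 members, Acaca, Elovl6 and Eci2, lay above 0, where 4.82% of genes did. Eci2 had the widest gap of them, with 26 UMIs (20.6 CPM) and 54 UMIs (41.7 CPM), a log2 ratio of 1.01 (0.31 to 1.75). In dividing cells and in cortical excitatory neurons the interval of Scd2 alone lay above 0, among 15 and 22 members, beside 5.25% and 4.1% of genes. None of 12 members had such an interval in other excitatory neurons, where 5.5% of genes did. Intervals below 0 were found for no member in these 4 classes, and for 4.65%, 4.45%, 4.81% and 5.59% of genes in dividing cells, cortical excitatory, forebrain inhibitory and other excitatory neurons.

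**Figure D4:**
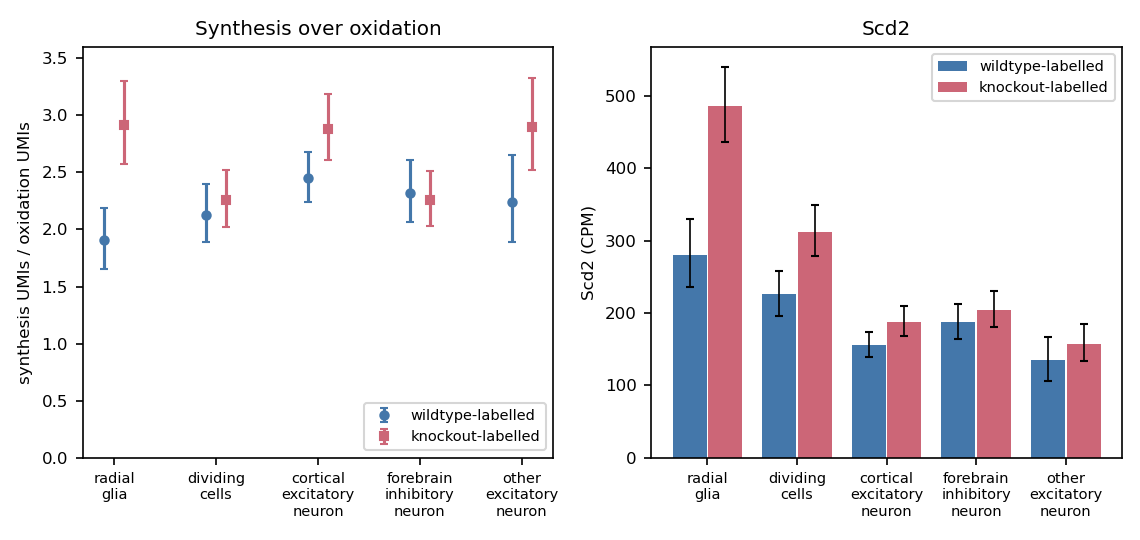
Left, synthesis UMIs over oxidation UMIs by class and library; right, CPM of Scd2 by class and library; error bars are 95% counting intervals. At full depth, radial glia show the widest gap between the libraries on both panels, 1.91 against 2.92 at left and 280 against 487 CPM at right, and forebrain inhibitory neurons little at left (2.32 against 2.26).

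The ratio of synthesis to oxidation UMIs differed by class in each library. In the wildtype-labelled library it was lowest in radial glia, 1.91 (1.66 to 2.19), and highest in cortical excitatory neurons, 2.45 (2.24 to 2.68). In the knockout-labelled library it was 2.92 (2.57 to 3.30) in radial glia, 2.90 (2.52 to 3.33) in other excitatory neurons and 2.88 (2.61 to 3.19) in cortical excitatory neurons, beside 2.26 in both dividing cells and forebrain inhibitory neurons. The order of the classes was therefore not the same in the libraries. Intervals of neighbours in the wildtype-labelled order overlapped, while in the knockout-labelled library that of cortical excitatory neurons began above that of dividing cells, which ended at 2.52. After thinning to 1000 UMIs the lowest wildtype-labelled ratio was in other excitatory neurons, 1.76, beside 1.82 in radial glia. The log2 ratio of knockout-labelled over wildtype-labelled was 0.61 (0.34 to 0.88) in radial glia, 0.37 (0.06 to 0.69) in other excitatory neurons, 0.23 (0.04 to 0.43) in cortical excitatory neurons, 0.09 (−0.15 to 0.32) in dividing cells and −0.04 (−0.27 to 0.19) in forebrain inhibitory neurons. After thinning it turned to −0.23 (−0.61 to 0.15) in cortical excitatory neurons and was 0.34 (−0.17 to 0.85) in radial glia, 0.58 (−0.05 to 1.21) in other excitatory neurons and 0.55 (0.05 to 1.05) in dividing cells.

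Both arms entered the radial glia value. The synthesis sum had a log2 ratio of 0.30 (0.15 to 0.45) there, and 0.08 (−0.10 to 0.26) without Scd2, and the oxidation sum one of −0.32 (−0.55 to −0.09). After thinning to 1000 UMIs the oxidation value turned to 0.04 (−0.39 to 0.48), and the synthesis to oxidation ratio of the knockout-labelled radial glia was 2.30. In cortical excitatory neurons the oxidation log2 ratio of −0.17 (−0.33 to 0.00) turned to 0.10 after thinning, and the synthesis log2 ratio of 0.07 (−0.04 to 0.17) to −0.14. In forebrain inhibitory neurons both arms were higher in the knockout-labelled library, synthesis by 0.21 (0.08 to 0.34) and oxidation by 0.25 (0.06 to 0.45).

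The comparison was repeated over clusters of nuclei, formed with the 42 members left out of the clustering genes. Among the 18 clusters with at least 100 nuclei in each library, Scd2 had the higher level under the knockout label in 16, with 6 intervals above 0 and none below. Its log2 ratios ran from −0.11 to 0.88, with a median of 0.31. The largest stood in the radial glia-like cluster (100 UMIs, 266 CPM, and 339 UMIs, 489 CPM) and in a cluster of dividing nuclei (383 UMIs, 273 CPM, and 495 UMIs, 450 CPM). Without Scd2 the synthesis sum was higher in 13 of the 18, with a median log2 ratio of 0.03. The oxidation sum was lower in 12 of the 18, with a median of −0.08 and 2 intervals below 0. All 18 clusters come from the same pair of libraries and are not replicates. The lowest Scd2 value, −0.11, stood in cluster 0. This cluster met the marker rule for erythroid-like nuclei with 8 of 10 markers, but haemoglobin genes made up 0.538% and 0.444% of its UMIs, and it is shown without a name. Its nuclei had medians of 740 and 706 UMIs, and its share was 9.47% in one library, labelled wildtype, and 14.6% in the other.

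**Figure D5:**
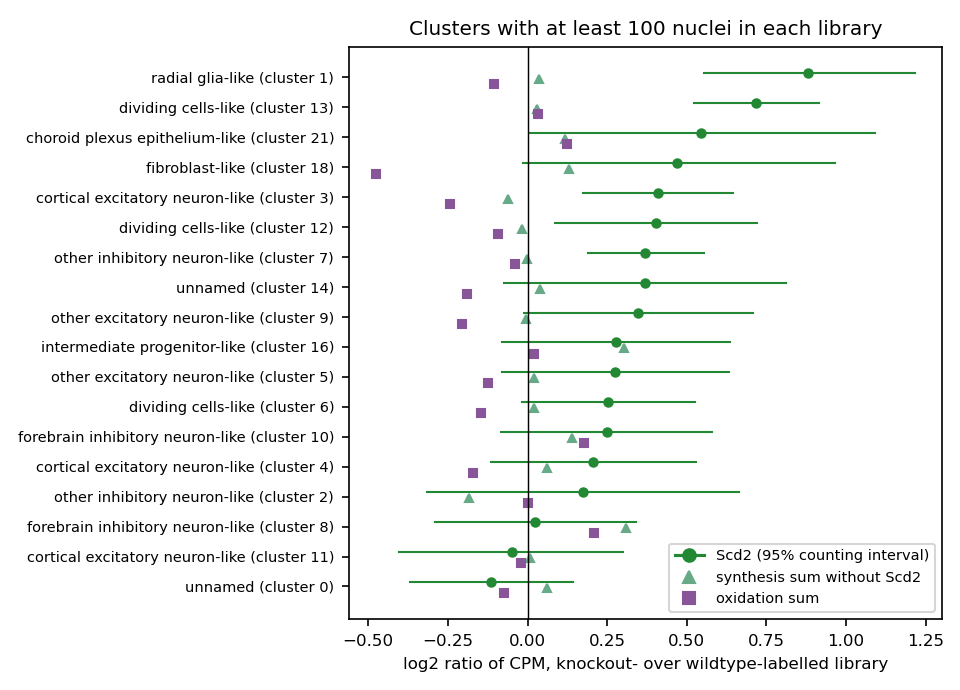
Log2 ratio of CPM, knockout-labelled over wildtype-labelled library (x axis), in each of 18 clusters (rows) for Scd2 (circles with 95% counting intervals), the synthesis sum without Scd2 (triangles) and the oxidation sum (squares). Scd2 lies right of 0 in 16 clusters, up to 0.88, while the triangles scatter about a median of 0.03.

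Outside the 5 main classes the members were counted on few nuclei, and the following were picked after their values were seen. Elovl7 was high in the choroid plexus, with 10 and 12 UMIs (69.6 and 70.1 CPM) in 44 and 51 choroid plexus nuclei, against 2.18 and 1.80 CPM in all other gated nuclei. Acaa2 was high there too, at 97.4 and 70.1 CPM against 11.6 and 10.3 CPM. In endothelial nuclei (60 and 81), Cpt1a had 12 and 25 UMIs (36.9 and 62.7 CPM), Acadl 14 and 25 UMIs (43.1 and 62.7 CPM) and Cpt2 9 and 7 UMIs (27.7 and 17.6 CPM). Acsl5, with 8 and 11 UMIs, stood at 24.6 and 27.6 CPM in them against 6.26 and 6.89 CPM elsewhere. Each of these levels was above that of the other gated nuclei in both libraries.

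The other genes of the pathway are read against the same background, 8.02% of all genes past the rule of size and higher and 4.6% lower. Of 19 regulators 15 had at least 100 UMIs, with 3 of them past the rule of size and higher, Ppargc1a, Insig1 and Ppargc1b, and 0 lower, and a median log2 ratio of 0.04. Srebf1 and Srebf2, the transcription factors that drive synthesis and sterol genes, each stood at 0.04. Insig1, an inhibitor of their activation, had 263 and 400 UMIs at 0.40 (0.17 to 0.63). Ppargc1a, a coactivator of mitochondrial genes, had 342 and 582 UMIs at 0.56 (0.36 to 0.76). Of 18 other synthesis genes 14 passed the filter and 0 were past the rule in either direction, with a median of 0.06. Of 22 other oxidation genes 15 passed, 1 higher (Acad10) and 3 lower (Acad11, Abcd2 and Amacr), with a median of −0.13. The 5 ketone body genes had a median of −0.07 and 0 past the rule.

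Of 26 genes of uptake, binding and hydrolysis 21 passed, with 3 past the rule and higher, 0 lower, and a median of 0.05. At 1.5-fold, where 2.12% of all genes were higher, they included Mfsd2a and Slc27a2. Mfsd2a, the transporter of docosahexaenoic acid at the blood-brain barrier, had 191 UMIs (11.1 CPM) and 340 UMIs (17.1 CPM), a log2 ratio of 0.62 (0.36 to 0.89). In endothelial nuclei it had 58 UMIs (178 CPM) and 132 UMIs (331 CPM), a log2 ratio of 0.89 (0.44 to 1.36). The endothelial nuclei also differed in haemoglobin genes (892 and 3221 CPM), in mitochondrial UMIs (0.987% and 1.47%) and in the summed markers of cortical excitatory (2997 and 1628 CPM) and forebrain inhibitory neurons (668 and 311 CPM), and the part of these in the result was not tested. Slc27a2, a very-long-chain acyl-CoA synthetase, had 44 and 77 UMIs at 0.60 (0.05 to 1.17).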

How the data were processed

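Whole fetal mouse brain was assayed by single-nucleus RNA-seq, 1 library per genotype. Raw UMI counts by gene and barcode were deposited. The authors made them with Cell Ranger, version 6.1.1 per the file headers and 3.0.1 per the submitters' processing notes. The notes also list STAR and the GRCm39 build. The annotation, intron counting and use of strand are not given in the sources used here.

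Nuclei with at least 500 genes and at most 5% mitochondrial UMIs were kept. UMIs were summed per library and class, with no test. CPM carry exact Poisson 95% intervals, log2 ratios exact conditional binomial intervals, and the synthesis over oxidation ratio a normal interval of the log odds. Intervals cover counting error only, and their code was tested on simulated data. A nucleus was gated to a class when it held at least 2 of its markers, each weighted by minus the natural log of the share of nuclei with a UMI of it, a summed weight of at least 6 and 1.5 times that of the next class. Scrublet's automatic threshold marked 0 nuclei in either library, so it had not worked, and doublets were kept. As an alternative, the 8% of nuclei with the highest scores were removed. Leiden clusters (scanpy 1.11.5, resolution 1, 2000 variable genes, 30 principal components, 15 neighbours) were made without the members and took a class name where at least 3 of its markers were 2-fold above the other clusters.

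Members, lists and gate thresholds were chosen with earlier results of these data known. Named genes were members at least 0.322 apart on the log2 scale whose interval excluded 0, the member with most UMIs in each family, the 5 highest and 5 lowest by class, and other pathway genes 1.5-fold apart. Further genes named in the text were chosen after their values were seen. Positions and lengths come from GENCODE M39 on GRCm39, and promoters from RefSeq on GRCm38.p6.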

Additional observations from a re-analysis of the deposited data

How the results depend on the processing

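No paired analysis was possible because each genotype had 1 library, and for the same reason no replicate could be left out. Removal of Scd2 moved the synthesis log2 ratio from 0.11 to 0.042 and that of synthesis over oxidation from 0.18 to 0.12, and thinning each nucleus to 1000 UMIs moved oxidation from −0.08 to −0.020. Over the 10 or 11 alternatives of each, synthesis stayed between 0.04 and 0.12, oxidation between −0.08 and −0.02 and their ratio between 0.12 and 0.19. The count of members past the rule of size and higher (2) was 3 of 30 after thinning (6.72% of all genes). It was 3 of 40 when scaled by the median of gene ratios (8.66%) and 0 at 1.5-fold. The count of those lower (0) was 1 with a minimum of 200 genes (4.82% of all genes) or 1000 genes (4.83%), 2 with the highest Scrublet scores removed (5.04%), 4 of 30 after thinning (4.96%) and 2 without clusters 0 and 17 (4.77%), an alternative chosen after seeing the data. After thinning, which left 5840 and 5569 nuclei, the synthesis to oxidation ratio of the wildtype-labelled library was 2.74 in cortical excitatory, 2.02 in forebrain inhibitory and 1.76 in other excitatory neurons, and that of the knockout-labelled library 2.34 in cortical excitatory neurons, 2.78 in dividing cells, 1.89 in forebrain inhibitory neurons and 2.30 in radial glia. The log2 ratio of synthesis over oxidation between the libraries thus turned to −0.23 in cortical excitatory neurons. The oxidation log2 ratio then reversed in cortical excitatory neurons (0.10) and radial glia (0.039). With clusters in place of gates the ratio in knockout-labelled dividing cells was 2.62. The cause of these moves was not tested. The other 64 planned and 4 added values of these results, the counts of 3 higher among them, moved by less than their counting interval or, for counts, by no more than 1.5 times. Depth limits members with few UMIs per class, such as Elovl7 and Hadh.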
